A study of Mus musculus with 12 samples.

Results

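The oxidative phosphorylation genes described here are the nuclear genes whose symbols on the array begin with Nduf, Uqcr, Cox4 to Cox8 or Atp5, or are Sdha, Sdhb, Sdhc or Sdhd. They numbered 85 of the 19084 genes with a named probe. By symbol, 33 belonged to complex I, 8 were the Ndufaf assembly factors of complex I, 4 belonged to complex II, 7 to complex III, 19 to complex IV and 14 to complex V. The rule takes symbols as they stand. It therefore counts Ndufa4 and Ndufa4l2, which are placed with complex IV, and Uqcrh-ps1, a pseudogene of the complex III subunit Uqcrh, and it misses genes of the pathway that carry other names, such as Cyc1. No symbol of the mitochondrial genome was matched, so the subunits it encodes were not analysed here.

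Liver RNA of male C57BL/6 mice was measured on 12 single-colour microarrays, 3 in each of 4 groups, in a study of a citrus flavonoid extract in diet-induced fatty liver. The ND mice ate a normal diet with 12.3% fat for 24 weeks, and 2 high-fat groups ate a diet with 36.1% fat and 2% added cholesterol for 16 weeks (HFD16) or 24 weeks (HFD24). The PTFC mice ate the same high-fat diet for 24 weeks and received pure total flavonoids from citrus at 50 mg per kg per day by gavage for the last 18 weeks, and the other groups received saline. Mice were 30 to 33 weeks old at collection in ND, 31 to 33 weeks in HFD24 and PTFC, and 23 to 25 weeks in HFD16, so that age differs wherever HFD16 is compared. Livers were taken after a 12 h fast. Each array's title carries a code of its own, but the labels do not say that each array came from a separate mouse. The spread behind every p-value is therefore that between these arrays, and it may be technical.

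Oxidative phosphorylation is carried out by 5 complexes of the inner mitochondrial membrane. Complex I (NADH dehydrogenase) and complex II (succinate dehydrogenase) pass electrons to coenzyme Q, complex III passes them to cytochrome c and complex IV (cytochrome c oxidase) to oxygen. The protons pumped on the way drive complex V, the ATP synthase. Hepatocytes are rich in mitochondria, and in fatty liver the chain takes up the electrons released by fatty acid oxidation. Several complex IV subunits come in a form used in most tissues and a form restricted to muscle, lung or testis.

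Most subunit genes gave some of the strongest signals of the liver arrays. Of the 85 genes, 60 lay in the brightest 25% of all genes, with a mean of at least 11.68 on the log2(intensity + 1) scale, 6 in the next 25%, 13 in the 25% after that and 6 in the dimmest 25%, below 6.84. The median over the 85 genes of this mean level was 14.74, against 9.17 over all genes. These 6 were Atp5md, Cox7b2, Cox8c, Ndufa4l2, Ndufc2 and Uqcrh-ps1. Probes differ in brightness for reasons other than RNA abundance, so levels are compared only between arrays for 1 probe and never between genes.

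The RNA of cell type markers changed with the diet, and this stands beside every value below. Hepatocyte markers were high on every array, and 1 of 10 fell in HFD24 against ND. In that comparison 14 of 14 macrophage, 8 of 10 stellate cell and fibroblast and 6 of 8 endothelial markers rose. So did 6 of 11 T and NK cell and 5 of 8 neutrophil markers. Of the stellate cell and fibroblast markers 1 fell, and of 5 cholangiocyte markers 2 fell and none rose. Over all genes, 9.97% rose and 8.28% fell. The summed intensity of the hepatocyte markers was 2442130 to 2537670 in ND, 2090740 to 2334890 in HFD16, 2132580 to 2444550 in HFD24 and 2463040 to 2633280 in PTFC, so that every HFD16 array lay below every ND array. The summed intensity of the macrophage markers was 20217 to 47864 in ND, 49131 to 231709 in HFD16, 141812 to 203636 in HFD24 and 95671 to 119241 in PTFC. No marker was at 0 on any array, and the part of these cells in the changes of the subunit genes was not tested. In whole liver, fewer cells of a type and less RNA per cell cannot be told apart. The scaling factor of the arrays, read from the smallest step between deposited values, was 1.23 to 1.46 in ND and 0.675 to 1.12 in the other groups. Scaling and diet therefore cannot be cleanly told apart in comparisons with ND.

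The promoter sequences below are those whose genes recur in the results. They are the 250 bases upstream of the RefSeq start site in build GRCm38.p6, written in the direction of transcription, and capitals mark matches on either strand to GCGCATGCG (the core recognised by NRF1), CCGGAAG (the ETS core bound by GABPA), TGACGTCA (the cyclic AMP response element, CRE) and TCAAGGTCA (the site of oestrogen-related receptors, ERR). NRF1, GABPA and the oestrogen-related receptors are the factors through which the coactivator Ppargc1a is known to act on respiratory genes. Where 10 capitals form the palindrome, 2 matches overlap, 1 on each strand. Atp5k is shown because it was the gene among the brightest 25% that fell on the diet, Cox6a1, Ndufa11 and Atp5g3 because they hold the other motifs, and Cox5b because it fell while its window holds none of the motifs.
Atp5k, chr5:108434400-108434649, minus strand: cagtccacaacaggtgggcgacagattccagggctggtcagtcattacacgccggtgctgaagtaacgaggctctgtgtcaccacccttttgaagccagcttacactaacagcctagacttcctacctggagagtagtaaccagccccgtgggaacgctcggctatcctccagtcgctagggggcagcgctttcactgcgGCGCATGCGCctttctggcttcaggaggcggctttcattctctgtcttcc
Cox6a1, chr5:115348959-115349208, minus strand: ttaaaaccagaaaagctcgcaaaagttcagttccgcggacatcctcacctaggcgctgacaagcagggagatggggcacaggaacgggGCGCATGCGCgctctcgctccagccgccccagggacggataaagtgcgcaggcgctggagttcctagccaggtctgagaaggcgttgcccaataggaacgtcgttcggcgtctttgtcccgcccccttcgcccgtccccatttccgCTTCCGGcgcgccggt
Ndufa11, chr17:56717512-56717761, plus strand: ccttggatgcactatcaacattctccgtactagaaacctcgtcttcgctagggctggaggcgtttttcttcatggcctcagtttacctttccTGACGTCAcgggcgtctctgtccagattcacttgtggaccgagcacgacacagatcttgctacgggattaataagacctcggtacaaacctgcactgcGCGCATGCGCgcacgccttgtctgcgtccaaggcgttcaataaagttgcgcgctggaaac
Atp5g3, chr2:73911327-73911576, minus strand: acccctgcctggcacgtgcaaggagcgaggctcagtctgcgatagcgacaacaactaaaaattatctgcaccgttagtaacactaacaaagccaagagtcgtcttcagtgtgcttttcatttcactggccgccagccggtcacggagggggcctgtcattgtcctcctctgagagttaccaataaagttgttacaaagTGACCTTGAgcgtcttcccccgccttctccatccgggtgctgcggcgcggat
Cox5b, chr1:36691237-36691486, plus strand: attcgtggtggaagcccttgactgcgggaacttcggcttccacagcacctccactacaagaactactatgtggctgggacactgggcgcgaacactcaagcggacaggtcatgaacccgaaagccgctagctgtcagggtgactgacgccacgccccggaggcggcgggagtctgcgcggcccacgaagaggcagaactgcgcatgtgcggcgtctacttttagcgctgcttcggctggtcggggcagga

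RefSeq promoters were found for 69 of the 85 genes and for 27025 genes in all. Some genes have more than 1 window, and a gene counts once if any of its windows holds the motif. The NRF1 core was present for 6 of the 69 genes (8.70%), those of Atp5g2, Atp5k, Cox6a1, Ndufa11, Ndufa8 and Ndufaf4, and for 1.64% of all genes with windows of that length. The ETS core was present for 10 (14.5%) against 7.83% of all genes, and the CRE for 4 (5.80%), those of Ndufa10, Ndufa11, Ndufb2 and Uqcrfs1, against 1.77%. The ERR site was present for 1 gene (1.45%), Atp5g3, against 0.422%. The YY1 core AAGATGGC was found for none of the 69 and for 1.83% of all genes. These are matches of letters, not shown sites of binding.

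Whether 24 weeks of high-fat diet changed the respiratory chain genes was addressed by comparing HFD24 with ND. Few of them moved. Cox8b rose 3.64-fold and Ndufc2 1.84-fold, and Atp5k, Cox5b and Uqcrh-ps1 fell, each by less than 2-fold. These 5 genes were 5.88% of the 85, whereas 18.3% of all genes passed the same test (limma, Benjamini-Hochberg adjusted p under 0.05 over all genes). The 2 that rose compare with 9.97% of all genes that rose, and the 3 that fell with 8.28% that fell. HFD24 and ND arrays were fully separated, without overlap, for 14 of the 85 genes (16.5%), against 33.6% of all genes.

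Most differences were small. The median absolute log2 difference was 0.20 over the 85 genes and 0.31 over all genes, and 1 of the 85 (1.18%), Cox8b, differed by at least 2-fold, against 8.67% of all genes. The median signed difference was -0.06 for the 85 genes, with 38 above 0 and 47 below, and -0.06 for all genes. The 95% interval of the difference lay within 2-fold in either direction for 75 of the 85 genes and within 1.5-fold for 42. Among the 60 genes of the brightest 25%, 1 passed (1.67%), against 11.8% of all genes that bright, and the interval lay within 2-fold for 59 of them and within 1.5-fold for 39. The remaining gene of the 60 was Ndufa12, a complex I subunit whose second ND array read 12.88 while its other 11 arrays read between 14.21 and 15.26.

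**Figure D1:**
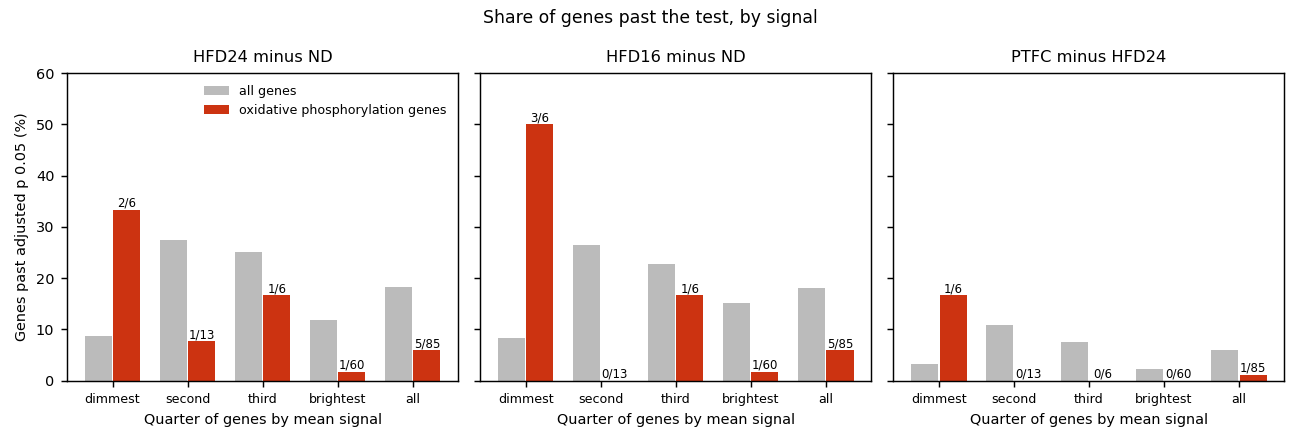
Share of genes past adjusted p 0.05 in each 25% of genes ranked by mean signal and in all genes, for all genes (grey) and oxidative phosphorylation genes (red), in 3 comparisons of 3 arrays each. The numbers above the red bars give genes past the test of genes in that class, and in HFD24 minus ND 1 of 60 passed in the brightest 25% and 5 of 85 in all.

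**Figure D2:**
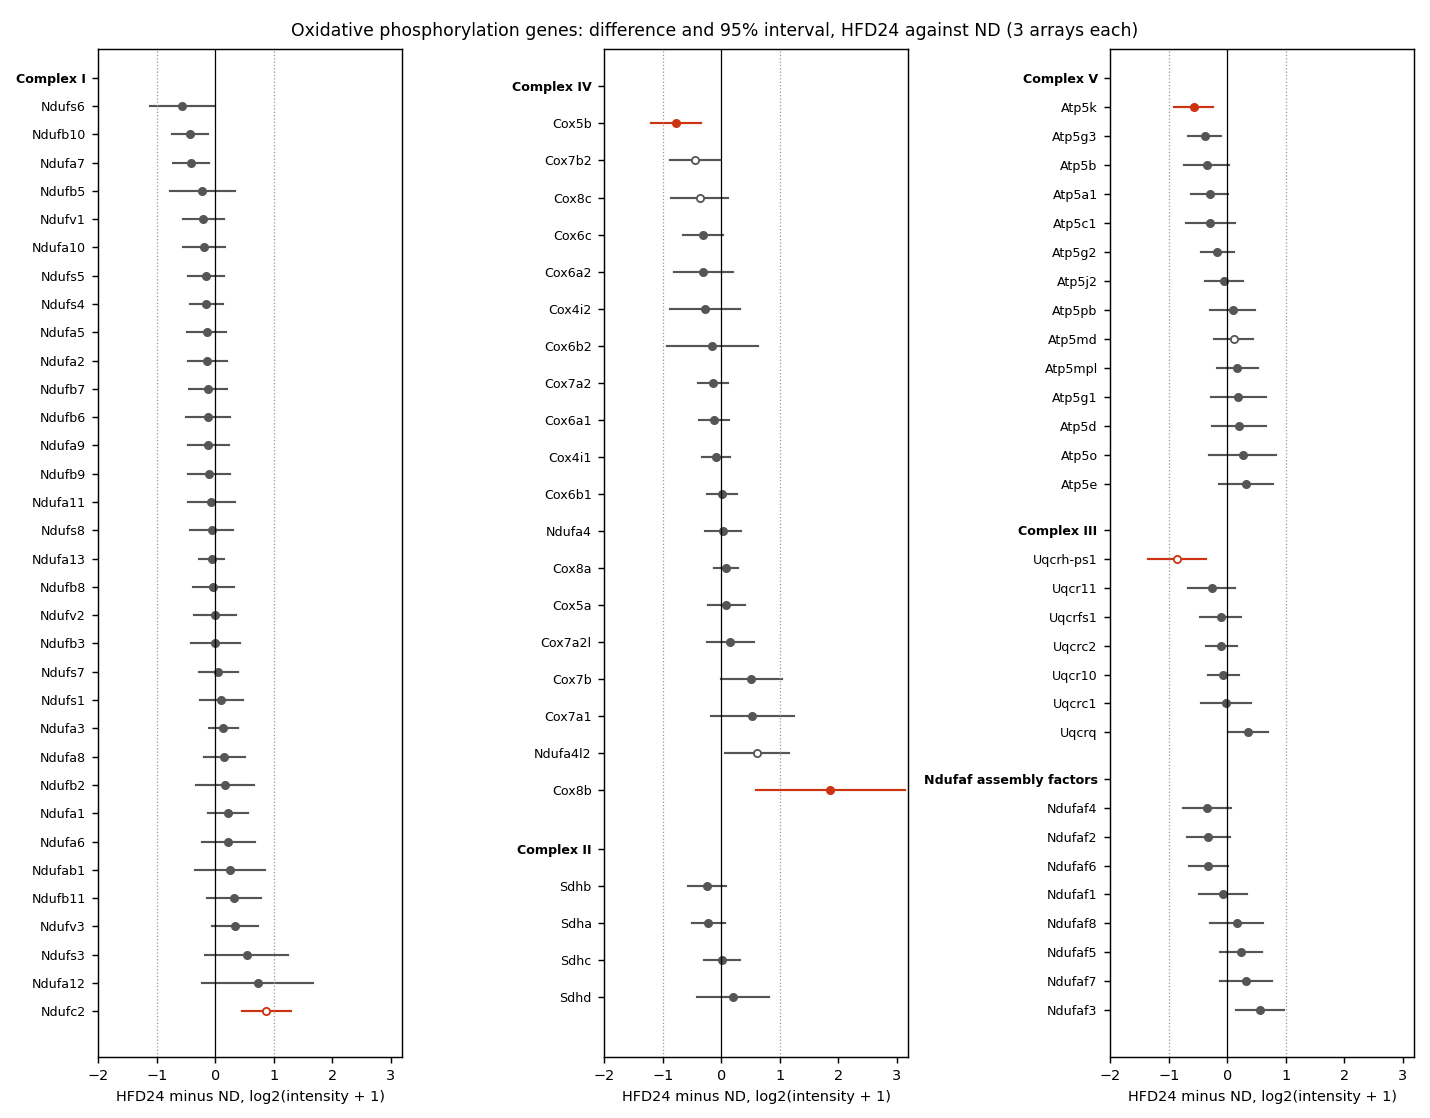
Difference between HFD24 and ND (points, log2 of intensity + 1) with its 95% interval (lines) for each of the 85 genes, sorted within each complex. Red marks the 5 genes past the test, open circles the dimmest 25% and dotted lines 2-fold. Most points lie close to 0, and Cox8b, at 1.86, lies alone beyond 2-fold.

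Complex I, the largest complex, changed in 1 of 33 subunit genes. Ndufc2, a small subunit of its membrane arm, read 5.62, 5.75 and 6.04 in ND, 6.58, 6.77 and 6.28 in HFD16, 6.85, 6.56 and 6.63 in HFD24 and 6.29, 6.26 and 5.83 in PTFC. Every array of both high-fat groups lay above every ND array, and the PTFC arrays lay below those of HFD24. The gene rose 1.84-fold in HFD24 against ND (log2 difference 0.88 ± 0.20 SE, n = 3 per group, limma adjusted p = 0.00886). Its probe lies in the dimmest 25%. The call ended on the authors' scale without further normalization and with the array scaling factor as a covariate, and over 20 alternatives the difference ran from 0.49 to 1.00, with adjusted p from 0.00549 to 0.249. The PTFC difference from HFD24 was -0.55 ± 0.20 (limma adjusted p = 0.107).

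The other complex I genes included the catalytic core. Ndufv1, which binds NADH, differed by -0.20 ± 0.16 (limma adjusted p = 0.425) and Ndufs1, the largest iron-sulfur subunit, by 0.11 ± 0.17 (limma adjusted p = 0.702). Ndufb10, in the membrane arm, lay just outside the threshold at -0.43 ± 0.14 (limma adjusted p = 0.0507). It was picked out after its value was seen. Over the complex, the quartiles of the difference were -0.14 and 0.17, with 15 genes above 0 and 18 below.

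The 8 Ndufaf factors, which assemble complex I and do not stay in it, did not pass by limma in HFD24 against ND, with 1, Ndufaf3, at an unadjusted p under 0.05. Ndufaf3, which takes part in building the arm that reaches coenzyme Q, read 12.53, 12.39 and 12.03 in ND, 13.04, 12.82 and 12.95 in HFD16, 13.02, 13.1 and 12.51 in HFD24 and 12.83, 12.89 and 13.05 in PTFC. All HFD16 and PTFC arrays were above all ND arrays, and the third HFD24 array overlapped with ND. The HFD24 difference was 0.56 ± 0.19 (limma adjusted p = 0.0535). The remaining factors had HFD24 differences between -0.35 (Ndufaf4) and 0.32 (Ndufaf7).

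Complex II, the enzyme shared with the tricarboxylic acid cycle, had none of its 4 subunit genes past the test. By limma, none of the 4 had an unadjusted p under 0.05 in HFD24 against ND, in HFD16 against ND or in PTFC against HFD24. Sdha, the flavoprotein that oxidises succinate, read 16.01, 15.87 and 15.59 in ND, 15.99, 15.92 and 15.94 in HFD16, 15.8, 15.5 and 15.51 in HFD24 and 15.83, 15.67 and 15.85 in PTFC. Its HFD24 difference was -0.22 ± 0.13 (limma adjusted p = 0.278), with a 95% interval from -0.51 to 0.07. Sdhb, the iron-sulfur subunit, differed by -0.24 ± 0.15, and the membrane anchors Sdhc and Sdhd by 0.01 ± 0.14 and 0.20 ± 0.28.

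Complex III changed only in its pseudogene entry among the 7. Uqcrh-ps1 read 6.93, 6.84 and 6.99 in ND, 5.8, 6.39 and 6.41 in HFD16, 6.53, 5.99 and 5.63 in HFD24 and 7.32, 7.41 and 7.56 in PTFC. The PTFC arrays were the highest of all 12, and the arrays of both high-fat groups lay below ND. It fell 1.82-fold in HFD24 (log2 difference -0.86 ± 0.23, limma adjusted p = 0.0205). A pseudogene resembles its parent gene, so which transcript the probe reads is uncertain, and Uqcrh itself was not analysed here. The core proteins Uqcrc1 and Uqcrc2 differed by -0.02 ± 0.20 and -0.10 ± 0.12, and Uqcrfs1, the Rieske iron-sulfur protein, by -0.11 ± 0.16.

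Complex IV changed in 2 of 19 genes, in opposite directions. Cox5b, a subunit on the matrix side used in all tissues, read 10.4, 10.26 and 9.73 in ND, 9.98, 9.75 and 9.86 in HFD16, 9.57, 9.27 and 9.23 in HFD24 and 9.81, 9.98 and 10.27 in PTFC. Every HFD24 array lay below every other array. It fell 1.71-fold in HFD24 against ND (log2 difference -0.77 ± 0.20, limma adjusted p = 0.0177). Its partner Cox5a, which binds next to it, differed by 0.09 ± 0.15 (limma adjusted p = 0.721).

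Cox8b, the form of subunit 8 used in heart, skeletal muscle and brown fat, read 6.12, 5.67 and 6.35 in ND, 6.33, 5.99 and 8.95 in HFD16, 8.05, 8.51 and 7.17 in HFD24 and 7.2, 6.67 and 7.17 in PTFC. All HFD24 arrays lay above all ND arrays, and 1 HFD16 array, the third, was the highest of all. It rose 3.64-fold in HFD24 (log2 difference 1.86 ± 0.59, limma adjusted p = 0.0435), with a 95% interval from 0.59 to 3.14. The summed intensity of 7 adipocyte markers was 2862 to 3378 in ND and 2749, 2987 and 10641 in HFD16. It was 30189, 6006 and 8332 in HFD24 and 12054 to 16045 in PTFC. Within HFD16, replicate 3 was the highest both in this sum and in Cox8b. Within HFD24 the order differed, and replicate 2 had the highest Cox8b (8.51) and the lowest sum (6006). Every PTFC sum lay above that of HFD16 replicate 3, while Cox8b in PTFC was 6.67 to 7.20. The summed intensity of 13 striated muscle markers was 7138 to 11575 in ND, 4892, 3928 and 16601 in HFD16, 3072 to 9859 in HFD24 and 4658 to 13715 in PTFC. Cidea, 1 of the 7 adipocyte markers, rose and none of the 13 muscle markers passed by limma in HFD24 against ND. The median difference of the 7 adipocyte markers in that comparison was -0.26. The part of either cell type in the Cox8b values was not tested.

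Of the subunits with both a general and a restricted form, the general forms did not pass. Cox8a, the form of subunit 8 used in liver, differed by 0.08 ± 0.10, and Cox4i1, Cox6a1, Cox6b1 and Cox7a2 differed by -0.09 ± 0.11, -0.12 ± 0.12, 0.01 ± 0.12 and -0.14 ± 0.12. The 95% intervals of these 5 were all between -0.40 and 0.28. Cox7a2 has a dimmer second probe that differed by -1.04, and with the mean of its probes the gene passed (-0.59, limma adjusted p = 0.00629). Of the restricted forms, Cox8b passed and the others did not. Cox4i2, the lung form, differed by -0.28 ± 0.28, and Cox6a2 and Cox7a1, the heart and muscle forms, by -0.30 ± 0.23 (0.77 for the dimmer probe of Cox6a2) and 0.53 ± 0.33. Cox6b2, Cox7b2 and Cox8c, known from testis, differed by -0.16 ± 0.36, -0.45 ± 0.20 and -0.37 ± 0.23. Cox7b, the general partner of Cox7b2, differed by 0.51 ± 0.24 (limma adjusted p = 0.161), with a wider interval from -0.01 to 1.04. Its HFD24 and ND arrays did not overlap. Cox7a2l differed by 0.15 ± 0.18. Ndufa4 differed by 0.03 ± 0.14 and its paralogue Ndufa4l2, known as a gene induced by low oxygen, by 0.61 ± 0.26 (limma adjusted p = 0.117).

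Complex V changed in 1 of 14 genes. Atp5k, subunit e of the membrane part, which helps to hold ATP synthases together in pairs, read 15.21, 15.48 and 15.04 in ND, 15.12, 15.24 and 15.17 in HFD16, 14.9, 14.56 and 14.54 in HFD24 and 14.82, 15.03 and 15.22 in PTFC. The HFD24 arrays lay below those of ND and HFD16, and 1 of them overlapped with PTFC. It fell 1.49-fold in HFD24 against ND (log2 difference -0.57 ± 0.16, limma adjusted p = 0.0225). The catalytic subunits Atp5a1 and Atp5b differed by -0.30 ± 0.14 (limma adjusted p = 0.169) and -0.35 ± 0.18 (limma adjusted p = 0.181). The 3 genes for the c subunit of the rotating ring, Atp5g1, Atp5g2 and Atp5g3, which encode the same mature protein, differed by 0.19 ± 0.22, -0.17 ± 0.13 and -0.39 ± 0.13, the last with a limma adjusted p of 0.0599.

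**Figure D3:**
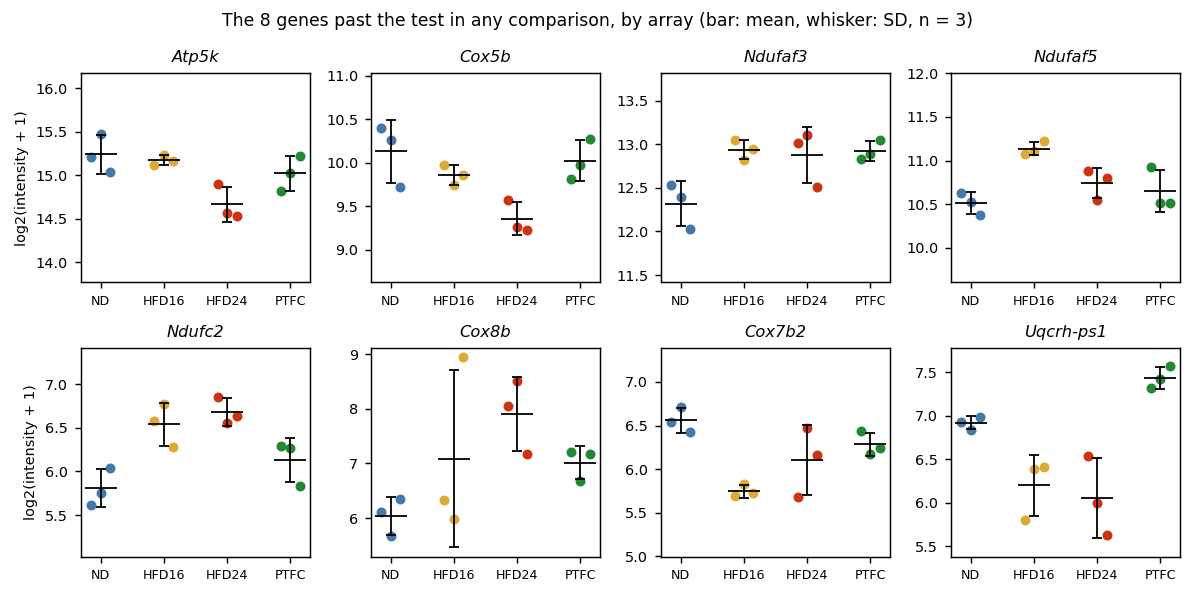
Normalized log2(intensity + 1) on each array for the 8 genes that passed the test in any comparison. Points are arrays, bars the mean and whiskers the SD (n = 3 per group), and each panel has its own axis of at least 2.4 log2 units. Cox5b is lowest in HFD24, and Uqcrh-ps1 is highest in PTFC.

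The calls of HFD24 against ND rested on small margins. The call ended for Atp5k, Cox5b and Uqcrh-ps1 when ND replicate 1, ND replicate 2, HFD24 replicate 2 or HFD24 replicate 3 was left out. Limma adjusted p was then 0.0652 to 0.105 for Atp5k, 0.0524 to 0.0895 for Cox5b and 0.0507 to 0.0795 for Uqcrh-ps1. For Cox8b the call ended in 8 of 12 fits that left out 1 array, namely any ND or PTFC array or HFD24 replicate 1 or 2 (limma adjusted p 0.0516 to 0.138). It also ended on the authors' scale, with median centring, without a variance trend and with the replicate number as a block, and Cox8b passed in 9 of 21 alternatives, with differences from 1.48 to 3.09. Ndufc2 passed with each array left out in turn. With ND replicate 3 left out, 12 of the 85 genes passed, and 1 passed without ND replicate 1, ND replicate 2 or HFD24 replicate 2. With the scaling factor as a covariate, 1 of the 5 passed, Cox8b. Every ND array had a higher factor than any other array, so this fit cannot separate scaling from diet. The directions of these 5 genes were the same in every alternative run.

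HFD16 was compared with ND as the earlier stage of the diet, in mice that were also younger. Again 5 of the 85 genes passed (5.88%), against 18.1% of all genes, and this comparison shares its ND arrays with the one above. Ndufaf3, Ndufaf5 and Ndufc2 rose, against 10% of all genes that rose, and Cox7b2 and Uqcrh-ps1 fell, against 8.11% that fell. HFD16 and ND arrays did not overlap for 17 of the 85 genes (20.0%), against 35.8% of all genes. The interval of the difference lay within 2-fold for 74 genes and within 1.5-fold for 49.

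Ndufaf5, which hydroxylates a core subunit during complex I assembly, read 10.63, 10.52 and 10.38 in ND, 11.08, 11.11 and 11.22 in HFD16, 10.88, 10.55 and 10.8 in HFD24 and 10.93, 10.51 and 10.52 in PTFC. The HFD16 arrays were the highest of all 12. It rose 1.54-fold (log2 difference 0.63 ± 0.17, limma adjusted p = 0.0218), while its HFD24 difference from ND was 0.23 ± 0.17. Ndufaf3 rose 1.54-fold at 16 weeks (0.62 ± 0.19, limma adjusted p = 0.037), beside 0.56 at 24 weeks. Ndufc2 rose 1.67-fold at 16 weeks (0.74 ± 0.20, limma adjusted p = 0.0224), beside 0.88 at 24 weeks.

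Cox7b2, a testis form of a complex IV subunit with a probe in the dimmest 25%, read 6.54, 6.72 and 6.42 in ND, 5.69, 5.83 and 5.73 in HFD16, 5.68, 6.47 and 6.16 in HFD24 and 6.43, 6.18 and 6.25 in PTFC. The HFD16 arrays lay below those of ND and PTFC, and HFD24 spanned both. It fell 1.76-fold in HFD16 (-0.81 ± 0.20, limma adjusted p = 0.0156), and Uqcrh-ps1 fell 1.65-fold (-0.72 ± 0.23, limma adjusted p = 0.0454). With the replicate number as a block 4 of the 5 passed, and Uqcrh-ps1 did not.

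These calls too rested on single arrays. Limma adjusted p rose to between 0.0552 and 0.1 for Ndufaf3 with any ND or HFD16 array left out, to between 0.0516 and 0.0819 for Ndufaf5 without ND replicate 1 or 2 or HFD16 replicate 2 or 3, and to between 0.0679 and 0.0963 for Ndufc2 without ND replicate 1 or 2 or HFD16 replicate 2. It rose to between 0.0523 and 0.0598 for Cox7b2 without ND replicate 1 or 2 or HFD16 replicate 3, and to between 0.0566 and 0.149 for Uqcrh-ps1 with any array other than HFD24 replicates 1 and 3 left out. Without ND replicate 1 or ND replicate 2 none of the 85 genes passed by limma, and without HFD16 replicate 2 or 3, 1 passed. None passed by limma with the scaling factor as a covariate, which here too overlaps with the difference between ND and the diet.

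HFD24 against HFD16 had no gene of the 85 past limma's threshold, and 0.0367% of all genes passed. At an unadjusted limma p under 0.05 there were 8 of the 85 genes and 1866 of all 19084.

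Whether the extract changed these genes on the same diet was addressed by comparing PTFC with HFD24. Uqcrh-ps1 rose, and no gene of a working subunit passed. This 1 gene was 1.18% of the 85, against 6% of all genes that passed by limma, 2.96% higher and 3.04% lower. PTFC and HFD24 arrays did not overlap for 9 of the 85 genes (10.6%), against 31.1% of all genes. The interval lay within 2-fold for 78 genes and within 1.5-fold for 48. At an unadjusted limma p under 0.05 there were 8 of the 85 genes and 4657 of all 19084. Uqcrh-ps1 rose 2.60-fold (1.38 ± 0.23, limma adjusted p = 0.0164), and its call ended without PTFC replicate 3 (limma adjusted p = 0.094). Without ND replicate 3, which enters through the joint normalization and the shared spread, 2 of the 85 genes passed.

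The comparison of PTFC with HFD24 shares the HFD24 arrays with the diet comparison, and the genes called there are given side by side. Cox5b, which had fallen in HFD24, differed by 0.67 ± 0.20 (limma adjusted p = 0.0648), and its arrays did not overlap. It passed in 3 of 21 alternatives, among them the authors' scale and the fit with the scaling factor as a covariate. Atp5k, which had also fallen, differed by 0.36 ± 0.16 (limma adjusted p = 0.177), with an interval from 0.02 to 0.69, and Cox8b, which had risen, by -0.89 ± 0.59 (limma adjusted p = 0.382). Cox6b2, a testis form that was not called in the diet comparison, differed by 0.79 ± 0.36 (limma adjusted p = 0.198), and its second PTFC array read 10.43 while the other PTFC arrays read 9.01 and 9.

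PTFC against ND had no gene of the 85 past the threshold by limma, and 2.33% of all genes passed. At an unadjusted limma p under 0.05 there were 9 of the 85 genes and 3267 of all 19084. Across the 4 groups, the F test of limma passed 4 of the 85 (4.71%), Cox5b, Cox7b2, Ndufc2 and Uqcrh-ps1, against 21.4% of all genes. In all, 8 different genes passed in any of the 5 comparisons, 3 of them in the dimmest 25%.

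By complex and array, the medians of the genes moved by 0.27 or less on the log2 scale. Over the 85 genes, the median deviation from the ND mean was between -0.05 and 0.05 on the ND arrays, -0.02, 0.04 and -0.09 on the HFD24 arrays and between -0.01 and 0.05 on the PTFC arrays. The lowest of all arrays was the second HFD16 array at -0.18, while the other HFD16 arrays read 0.08 and -0.02. For complex I alone that array read -0.27 and the other HFD16 arrays 0.16 and 0.02. Its step, 0.675, was the smallest of all arrays, and its macrophage sum, 231709, the highest. For complex V the HFD24 arrays read -0.05, -0.09 and -0.11, below every ND and PTFC array, which read from -0.03 to 0.12. The second HFD16 array was lower still at -0.15, and the other HFD16 arrays read -0.02 and 0.01. For complex IV the HFD16 arrays read -0.08, -0.19 and -0.13, below every ND array, which read from -0.04 to 0.03. For complex III 2 HFD16 arrays read -0.25 and -0.26 and the first -0.07, and 1 HFD24 array read -0.20, while ND ran from -0.09 to 0.14. These differences between array medians were not tested.

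**Figure D4:**
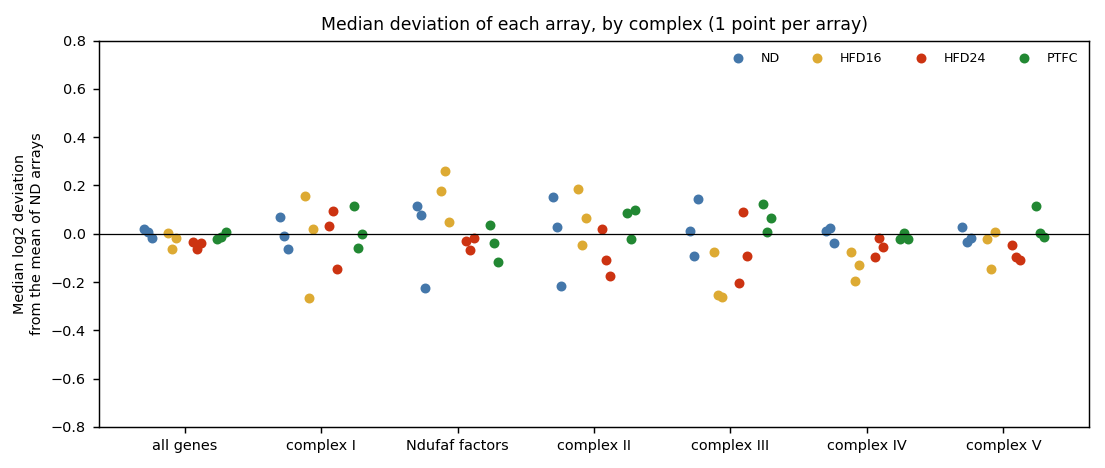
Median deviation from the mean of the ND arrays for all genes and for the genes of each complex, 1 point per array (log2 of intensity + 1). For complex I the second HFD16 array lies lowest at -0.27, and for complex IV the HFD16 arrays lie below ND. For complex V the HFD24 arrays lie below ND and PTFC, and the second HFD16 array lies lowest.

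The small medians depend on how the arrays were scaled. On the authors' scale, the median of all genes was shifted by -0.23 in HFD24 against ND and by 0.24 in PTFC against HFD24, and the median of the 85 genes relative to it was 0.04 and -0.04. With median centring the median of the 85 genes in HFD24 against ND turned from -0.06 to 0.02, and with the scaling factor as a covariate to 0.12. The share of all calls that were higher also moved, from 54.6% to 41.3% in HFD24 against ND, from 55.3% to 34.5% in HFD16 against ND and from 49.3% to 90.5% in PTFC against HFD24, on the authors' scale.

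A second probe was available for some genes and did not always read alike. Of the 85 genes, 10 had more than 1 probe, with 11 further probes. The dimmer probe of Cox7a2 differed by -1.04 in HFD24 against ND (limma unadjusted p = 4.43e-05), while the brighter one differed by -0.14. The dimmer probe of Ndufa11, a membrane arm subunit of complex I, differed by -0.78 in HFD24 against ND (limma unadjusted p = 0.000372) and by 0.67 in PTFC against HFD24 (0.00131), while the brighter one differed by -0.06 and 0.19. Cox6a2 had a dimmer probe at 1.29 in HFD16 against ND (limma unadjusted p = 0.00495) beside -0.45 for the brighter one. In HFD24 against ND the dimmer Cox6a2 probe read 0.77 beside -0.30. Ndufv3, a complex I subunit, had probes of opposite sign in HFD24 against ND, 0.33 for the brightest, -0.14 for the next and -0.50 for the dimmest (limma unadjusted p = 0.0163). Both probes of Ndufs4, the complex I subunit whose loss causes Leigh syndrome, differed by little, -0.15 and -0.03. The transcript each probe reads was not given in the sources used here.

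Around the complexes, genes that build, supply or regulate the chain were counted by list, and each count stands beside the 18.3% of all genes called in HFD24 against ND, 9.97% higher and 8.28% lower, or the 6% called in PTFC against HFD24. Of 7 measured factors for complex I assembly outside the Ndufaf family, 1 fell in HFD24 against ND. Acad9, an assembly factor related to acyl-CoA dehydrogenases, read 10.25, 10.2 and 9.81 in ND, 9.3, 8.91 and 9.07 in HFD16, 8.67, 9.29 and 9.43 in HFD24 and 10, 9.81 and 10 in PTFC. It fell 1.94-fold in HFD24 (-0.96 ± 0.21, limma adjusted p = 0.00783) and rose 1.74-fold in PTFC against HFD24 (0.80 ± 0.21, limma adjusted p = 0.0422). The PTFC call ended in 8 of 12 fits that left out 1 array, those without HFD24 replicate 1 or 2, any PTFC array, ND replicate 1 or 2, or HFD16 replicate 3 (limma adjusted p 0.052 to 0.175), and with the replicate number as a block.

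Of 18 complex IV assembly genes, 2 fell, beside 8.28% of all genes that fell. They were Coa7 (-0.91 ± 0.18, limma adjusted p = 0.00428) and Cox11 (-0.58 ± 0.18, limma adjusted p = 0.0409), which delivers copper to the enzyme. Of 6 complex III assembly genes 1 rose, beside 9.97% of all genes that rose. It was Uqcc2, by 0.52 ± 0.15 (limma adjusted p = 0.0266). None of 4 complex II and 3 complex V assembly genes passed by limma, Sdhaf4 with an unadjusted p of 0.0281 and Atpaf1 with one of 0.0103. In PTFC against HFD24 none of these 4 lists had a gene past the threshold of limma, with 1 of the complex III and 1 of the complex IV assembly genes at an unadjusted p under 0.05.

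Among 7 measured subunits and regulators that the symbol rule misses, 2 rose and 1 fell in HFD24, and 2 fell in PTFC against HFD24. Over all genes, 9.97% rose and 8.28% fell in the first comparison, and 3.04% fell in the second. AA467197, a paralogue of Ndufa4, read 6.32, 6.66 and 6.74 in ND, 7.22, 9.84 and 8.87 in HFD16, 9.9, 9.76 and 9.31 in HFD24 and 8.25, 6.78 and 6.82 in PTFC. All HFD24 arrays exceeded all PTFC arrays. The first PTFC array lay well above ND, and the other PTFC arrays lay close to it. It rose 8.48-fold in HFD24 (3.08 ± 0.53, limma adjusted p = 0.00219) and fell 5.18-fold in PTFC against HFD24 (-2.37 ± 0.53, limma adjusted p = 0.0275), the latter ending without HFD24 replicate 1 or 2 or PTFC replicate 2 or 3 (limma adjusted p 0.0699 to 0.146). The order of its group means was also that of the macrophage marker sums, and the part of macrophages was not tested.

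Atpif1, the inhibitor that stops ATP synthase from running backwards, read 12.88, 12.68 and 12.73 in ND, 13.02, 13.01 and 12.98 in HFD16, 13.39, 13.86 and 13.13 in HFD24 and 12.67, 12.3 and 12.3 in PTFC. The HFD24 arrays were the highest and the PTFC arrays the lowest. It rose 1.63-fold in HFD24 (0.70 ± 0.19, limma adjusted p = 0.0205) and fell 2.05-fold in PTFC against HFD24 (-1.04 ± 0.19, limma adjusted p = 0.018). The first call ended without ND replicate 2 or HFD24 replicate 2 (limma adjusted p 0.0711 and 0.0743), and the second without HFD24 replicate 1 or PTFC replicate 3 (limma adjusted p 0.0585 and 0.0986). Cyc1, the cytochrome c1 of complex III, differed by -0.35 ± 0.15 in HFD24 (limma adjusted p = 0.12) and by 0.35 ± 0.15 in PTFC against HFD24 (limma adjusted p = 0.162).

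Of 14 regulators of mitochondrial biogenesis, 3 fell in HFD24 and none passed by limma in PTFC against HFD24, where 1 had an unadjusted p under 0.05. Over all genes, 8.28% fell in the first comparison and 6% passed in the second. The median difference of the 14 in HFD24 against ND was -0.36, beside -0.06 for all genes. Ppargc1a, the coactivator that switches on respiratory genes, read 10.13, 10.33 and 11.02 in ND, 8.86, 8.79 and 8.42 in HFD16, 9.15, 9.41 and 8.71 in HFD24 and 9.31, 9.47 and 8.98 in PTFC. Every ND array lay above every other array. It fell 2.65-fold in HFD24 (-1.40 ± 0.25, limma adjusted p = 0.00255), passed in all 21 alternatives, and differed by 0.16 ± 0.25 in PTFC against HFD24. The 16 oxidative phosphorylation genes with an NRF1, ETS or ERR match went both ways in HFD24 against ND, 6 above 0 and 10 below, from -0.57 (Atp5k) to 0.54 (Ndufs3), with a median of -0.09. The 53 without one had 27 above 0 and 26 below, with a median of 0.00. Matches of letters do not define targets of Ppargc1a, and a link to its fall was not tested. Polg, the mitochondrial DNA polymerase, and Pprc1, a relative of Ppargc1a, fell by 0.67 ± 0.16 (limma adjusted p = 0.0132) and 0.64 ± 0.17 (limma adjusted p = 0.0196) on the log2 scale.

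Lists of substrate supply, carriers and translation are read against the same shares, 18.3% of all genes called, 9.97% higher and 8.28% lower. Of 15 genes of the tricarboxylic acid cycle and pyruvate dehydrogenase, 3 fell, Dlst (-0.64 ± 0.17, limma adjusted p = 0.0204), Fh1 (-0.75 ± 0.22, limma adjusted p = 0.0312) and Ogdh (-0.42 ± 0.13, limma adjusted p = 0.0355). Dlst and Ogdh encode parts of 1 enzyme, 2-oxoglutarate dehydrogenase. Of 12 genes for cytochrome c and coenzyme Q synthesis, 3 fell and 1 rose, with Coq5 differing by -0.92 ± 0.21 (limma adjusted p = 0.0103) and Coq8a by 0.92 ± 0.22 (limma adjusted p = 0.0108). Of 8 carriers and porins, 1 rose, Slc25a4, which exchanges ADP for ATP and is known as the heart and muscle form, by 1.47 ± 0.28 (limma adjusted p = 0.00354). Of 71 genes of the mitochondrial ribosome, 2 fell, Mrpl38 and Mrps31, each by 0.56 on the log2 scale (limma adjusted p = 0.0319 and 0.0401). The median differences were -0.20, -0.10, 0.17 and -0.07 for these 4 lists in turn. None of their genes passed by limma in PTFC against HFD24, where 4, 0, 2 and 5 had an unadjusted p under 0.05, with differences of 0.48 ± 0.17 for Dlst (limma adjusted p = 0.102) and -0.62 ± 0.28 for Slc25a4 (limma adjusted p = 0.189).

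Among the genes of these lists called in HFD24 against ND and named here, AA467197, Acad9, Coa7, Coq5, Ppargc1a and Slc25a4 passed with each array left out in turn. Of these, only Ppargc1a passed in all 21 alternatives. The others each passed in 20 of 21, with a limma adjusted p of 0.0916 to 0.173 in the alternative that ended the call. The calls of Polg (without ND replicate 1, limma adjusted p = 0.0617) and Coq8a (without ND replicate 2, limma adjusted p = 0.0504) ended with 1 array. Dlst did not pass without ND replicate 1 or HFD24 replicate 3 (limma adjusted p 0.0597 and 0.0991), and Pprc1 without ND replicate 1 or 2 or HFD24 replicate 1 (limma adjusted p 0.0507 to 0.0826). Uqcc2 did not pass without ND replicate 1 or 2 or HFD24 replicate 2 or 3 (limma adjusted p 0.0532 to 0.0975), and Mrpl38 without ND replicate 1 or 2 or HFD24 replicate 1 or 3 (limma adjusted p 0.053 to 0.142). Fh1 did not pass without any ND array or HFD24 replicate 1 or 3 (limma adjusted p 0.0578 to 0.105). Ogdh and Mrps31 lost the call in 6 of 12 such fits each and Cox11 in 10 of 12 (limma adjusted p up to 0.151, 0.161 and 0.137).

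**Figure D5:**
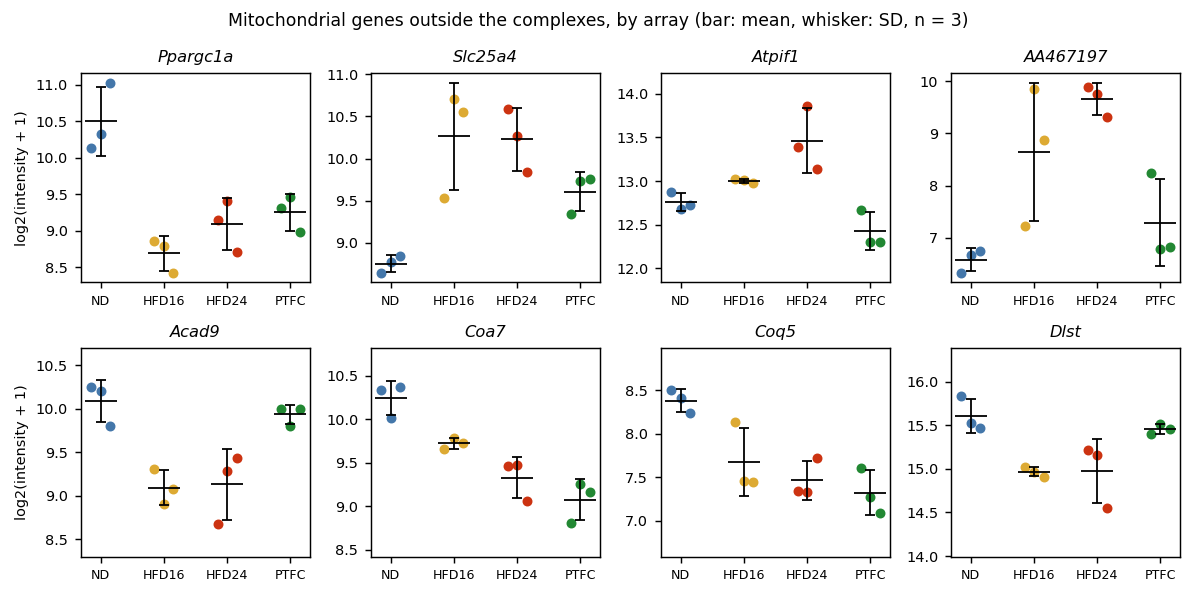
Normalized log2(intensity + 1) on each array for 8 mitochondrial genes that the symbol rule does not match, all past the test in HFD24 against ND. Points are arrays, bars the mean and whiskers the SD (n = 3 per group). Ppargc1a is lower in the 3 groups on high-fat diet than in ND, and AA467197 and Atpif1 are highest in HFD24.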

How the data were processed

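Each of the 12 arrays has 26423 probes, and the values the authors deposited are linear intensity, labelled with Cy5 per the labels' protocols. How the authors subtracted background and scaled the arrays was not given in the sources used here. At least 99.99% of each array's values were whole multiples (tolerance 0.02) of a step of its own. Values at or below 0 made up 0.134%. The platform table named 21876 probes with 1 symbol, and 4547 are unnamed here.

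Values below 0 were set to 0, log2(intensity + 1) was quantile normalized, and the brightest probe of each gene was kept. Differences are on that scale and understate the change of dim genes. Group means of all 12 arrays were fitted with limma 3.58.1 in R 4.3.3 (eBayes with a trend), two-sided, with Benjamini-Hochberg adjustment over 19084 genes and a threshold of 0.05. For arrays, their number limits the precision. The fit was tested on simulated data. The members and lists were chosen with earlier results of these data known. Named genes were every member past the threshold, the member of each complex with the smallest F test p, the isoform partners, and up to 3 genes per list and comparison by smallest p; others were picked after their values were seen, as examples of a role or of values near a threshold.

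Same-numbered replicates correlated between -0.29 and 0.17 over 18 pairs of arrays in their deviations from the group means. Pairs with different numbers correlated between -0.19 and 0.26 over 36 pairs, and 10 of them exceeded 0.1. All same-numbered pairs of ND and HFD16 also exceeded 0.1, at 0.105 to 0.147, which is no higher than many unmatched pairs. Whether the numbers pair these arrays is not settled. The reported fit does not use the numbers, and the replicate block was run as an alternative. The alternatives were other scalings, a pseudocount of 32, dropping the dimmest 25% of genes, the mean of all probes, no variance trend, the step as a covariate, the replicate block, only the 2 groups compared, and each array left out. Promoters are those of RefSeq, GRCm38.p6.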

Additional observations from a re-analysis of the deposited data

How the results depend on the processing

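Of the 11 results called for the 85 genes, none passed in every alternative (up to 21 each) and none changed sign. Results that did not pass were followed only for 26 named genes, in HFD24 against ND and in PTFC against HFD24. Of these 46 results, 5 passed in some alternative. Cox6c and Ndufb10, which passed in alternatives given below, are not among the 26, so the 46 do not cover all 85 genes. In HFD24 against ND, 5 genes passed, 1 with the array step as a covariate, and between 1 and 12 with each array left out. In PTFC against HFD24, 1 passed, 3 on the authors' scale (Cox5b, Cox6c and Uqcrh-ps1), 2 with the step as a covariate and 0 without the dimmest 25% of genes, which drops Uqcrh-ps1, and between 0 and 2 with each array left out. In HFD16 against ND, 5 passed, 2 without the dimmest 25%, 0 with the step as a covariate, 2 with only the 2 groups compared and between 0 and 6 with each array left out. The F test passed 4, 9 on the authors' scale, 2 with the step as a covariate and between 1 and 8 with each array left out (1 without ND replicate 1 or 2, 8 without ND replicate 3, 2 without HFD16 replicate 1 or 2 or PTFC replicate 2 or 3). The step was higher on every ND array than on any other, so as a covariate it overlaps with the diet in comparisons with ND. Other causes of these moves were not tested. HFD24 against HFD16 and PTFC against ND had 0 by limma in every alternative. In the reported fit 8 and 9 of the 85 had an unadjusted limma p under 0.05, beside 1866 and 3267 of all 19084 genes. With the replicate number as a block, 5 passed in HFD24 against ND (Ndufb10 in place of Cox8b), 1 in PTFC against HFD24, 4 in HFD16 against ND and 3 by the F test. Only between ND and HFD16 did all same-numbered pairs exceed 0.1, and whether the numbers pair those arrays is not settled. The median SE of the log2 difference was 0.16 for the members in the brightest 25% and 0.21 for those in the dimmest 25%, and it was largest for Cox8b at 0.59.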
